A study of Mus musculus with 6 samples.

Results

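The enzymes that turn acetyl-CoA into palmitate, and the synthetases that activate the resulting fatty acids, were examined in neuro2a cells after knockdown of the transcription factor NF-Y. The group holds 10 genes, Acly, Acss2, Acaca, Acacb, Fasn, Me1, Acsl1, Acsl3, Acsl4 and Acsl5, out of 16500 genes tested. The genes were taken by function, but with earlier results of these data known. They are covered by 18 of the 42137 tested probes, found through the accession that the array gives each probe. Neuro2a is a mouse neuroblastoma line, and its RNA was hybridized to 6 single-colour Agilent arrays. The 3 control arrays are titled Vector and were taken to carry RNA of cells transfected with an empty miR RNAi vector. The paper names an empty and a non-targeting vector as controls, without saying which these arrays carried. The 3 knockdown arrays carried RNA of cells transfected with miR RNAi vectors directed at the NF-YA and NF-YC subunits. Transfection was transient, and the share of cells that took up vector is not stated. If the control vector was empty, it carried no non-targeting RNAi. Nothing states whether replicates came from separate cultures, so the p-values measure the spread between these samples, which may be technical.

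Fatty acid synthesis starts in the cytosol. Acly splits exported citrate and Acss2 activates acetate, and both yield acetyl-CoA. Acetyl-CoA carboxylase (Acaca) makes malonyl-CoA, fatty acid synthase (Fasn) builds palmitate from these units with NADPH, and malic enzyme (Me1) is a source of that NADPH. Long-chain acyl-CoA synthetases of the Acsl family then couple fatty acids to coenzyme A, which is needed before they enter membrane lipids, triglycerides or oxidation. Many of these genes are classical targets of SREBP, which acts on promoters together with NF-Y and Sp1, and NF-Y itself binds the pentamer CCAAT.

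The windows of 250 bases before the RefSeq start sites (build GRCm38.p6) were searched for CCAAT on both strands, where it reads ATTGG on the other strand. All 10 genes had an entry, and Me1 and Acsl1 had 2 start sites each, which gave 12 windows. CCAAT was found in 7 of 12 windows, against 33.8% of 32851 windows of all genes. These windows belonged to 7 of the 10 genes, and no share per gene was counted over all genes. The windows of the 3 genes called lower below (Acly, Acss2 and Acsl4), of Fasn, and of the pair that did not pass the test (Acacb and Acsl3) follow 5′ to 3′, with CCAAT or ATTGG in capitals.
Acly (chr11:100528001-100528250, minus strand): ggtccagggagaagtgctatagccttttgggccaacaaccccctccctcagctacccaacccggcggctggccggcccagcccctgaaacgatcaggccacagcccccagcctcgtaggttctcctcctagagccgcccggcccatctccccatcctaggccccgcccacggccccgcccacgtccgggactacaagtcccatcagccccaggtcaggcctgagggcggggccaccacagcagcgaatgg
Acss2 (chr2:155517793-155518042, plus strand): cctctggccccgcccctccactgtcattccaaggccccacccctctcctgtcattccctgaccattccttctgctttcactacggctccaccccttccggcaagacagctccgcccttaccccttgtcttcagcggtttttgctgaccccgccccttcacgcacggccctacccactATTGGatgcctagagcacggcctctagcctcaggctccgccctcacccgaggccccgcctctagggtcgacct
Acsl4 (chrX:142390536-142390785, minus strand): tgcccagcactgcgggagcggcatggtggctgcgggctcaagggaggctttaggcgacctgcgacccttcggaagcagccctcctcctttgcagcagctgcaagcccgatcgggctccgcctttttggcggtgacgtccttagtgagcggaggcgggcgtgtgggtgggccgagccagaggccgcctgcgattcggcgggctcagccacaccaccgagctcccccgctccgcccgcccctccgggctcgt
Fasn (chr11:120824548-120824797, minus strand): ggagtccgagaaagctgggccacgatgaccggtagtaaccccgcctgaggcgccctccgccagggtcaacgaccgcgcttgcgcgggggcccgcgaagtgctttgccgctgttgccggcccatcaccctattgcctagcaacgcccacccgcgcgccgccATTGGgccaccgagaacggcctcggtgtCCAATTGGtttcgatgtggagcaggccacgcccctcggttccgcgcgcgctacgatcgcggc
Acacb (chr5:114165268-114165517, plus strand): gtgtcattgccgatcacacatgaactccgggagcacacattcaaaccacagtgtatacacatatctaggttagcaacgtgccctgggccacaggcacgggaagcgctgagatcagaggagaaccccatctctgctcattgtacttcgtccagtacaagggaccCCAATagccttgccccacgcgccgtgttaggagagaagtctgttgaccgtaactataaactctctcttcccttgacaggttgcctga
Acsl3 (chr1:78657575-78657824, plus strand): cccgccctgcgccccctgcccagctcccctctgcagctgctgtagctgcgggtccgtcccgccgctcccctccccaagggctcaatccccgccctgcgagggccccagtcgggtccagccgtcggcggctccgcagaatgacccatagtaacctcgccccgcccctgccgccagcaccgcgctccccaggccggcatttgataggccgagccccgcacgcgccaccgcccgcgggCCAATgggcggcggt

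Fasn held 3 matches, the most of any window of these genes, at 90 to 86, 62 to 58 and 59 to 55 bases before the start site, of which the last pair overlap on opposite strands. Acss2 held 1 match at 73 to 69 bases, Acacb 1 at 87 to 83 and Acsl3 1 at 15 to 11. Acly and Acsl4 held 0 in their windows, as did Acaca, whose listed start site lies within the gene model. Acsl5 held 1 match, the second window of Acsl1 held 2 and the first window of Me1 held 1. The start sites of these Acsl1 and Me1 windows lie downstream of the other start site of the same gene. The GC box GGGCGG, bound by Sp1, was present on either strand in 6 of 12 windows, among them those of Acly, Acss2, Acsl3 and Acsl4, against 32.7% of all windows. In Acsl3 a GC box followed CCAAT directly. The sterol regulatory element core TCACNCCAC was in 1 of 12 windows, the second of Acsl1, against 1.05% of all windows, and the E-box CACGTG was in 0 of 12, against 6.02%. These matches describe the sequence only, and start sites used in neuro2a cells were not measured.

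**Figure D1:**
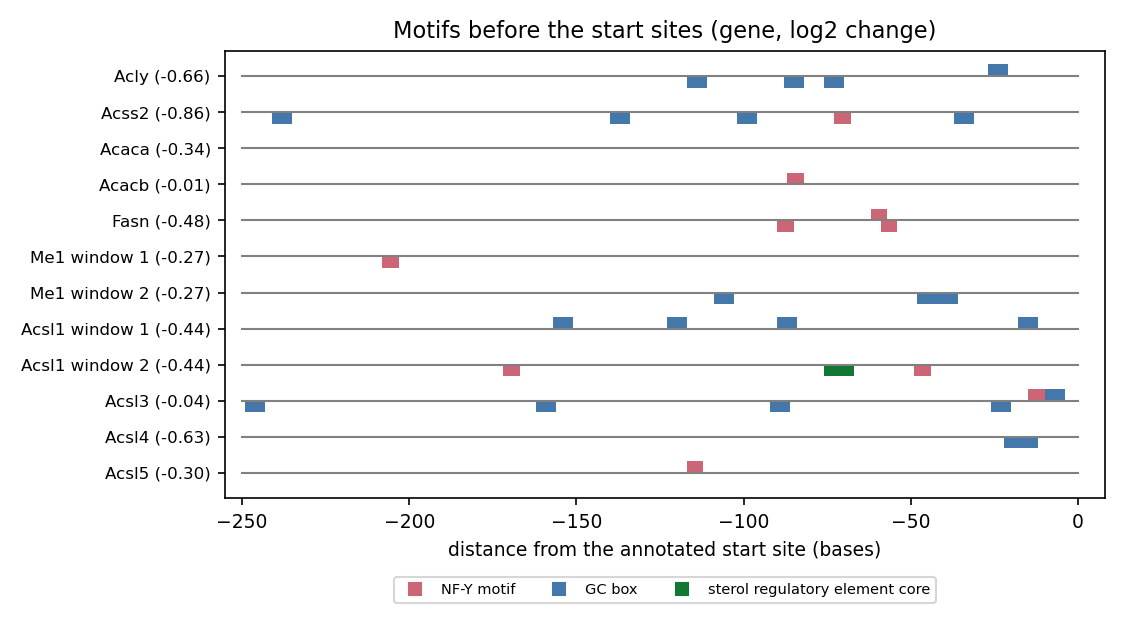
Matches to 3 motifs in the 250 bases before each RefSeq start site of the 10 genes, plotted as distance from the start site in bases, above the line for the strand of the gene and below it for the opposite strand; the number beside each gene is its log2 change in knockdown. CCAAT lies in windows of genes that were lower (Fasn, Acss2) and of genes that did not pass the test (Acacb, Acsl3), and is missing from those of Acly and Acsl4.

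Signal was read as log2 of the processed intensity minus the 75th percentile of the same array, so 0 stands for that percentile, and the scale does not allow levels of different genes to be compared. The 75th percentile lay between 718 and 754 intensity units, and 61.9% to 66.2% of spots were well above background. All 18 probes of these genes were well above background on all 6 arrays. The targeted genes checked the labels: Nfya changed by -0.76 (SE 0.055, limma adjusted p = 0.00129) and Nfyc by -1.81 (SE 0.045, limma adjusted p = 0.000323), and both were lower on every knockdown array than on any control array. Of 13 neuroblastoma and neuron markers 11 were well above background on all arrays, among them Hand2, Dbh and Th, while Nefl was so on none. Their summed intensity was 225146 to 239007 in control and 203843 to 217469 in knockdown. Single markers moved in both directions. Of 12 tested, 5 were lower and 2 higher at a limma adjusted p below 0.05, where 15.8% of all genes were lower and 15.7% higher. Th (-0.62) and Mycn (-0.69) were among the lower and Gata2 (0.56) among the higher. Of 16 markers of other cell types 10 were above background on all arrays, with sums of 2156 to 2281 in control and 1694 to 1891 in knockdown, and Alb, Cdh5 and Col3a1 were above it on none. The brightest of them was Acta2, at 0.65 in control and 0.12 in knockdown. The part of these shifts in the results that follow was not tested. Arrays measure bulk RNA, so fewer cells expressing a gene and less RNA per cell cannot be told apart.

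Where a gene had several probes, the brightest one on average stood for it. A gene is called lower or higher at a limma adjusted p below 0.05 together with a fold change above 1.5. By this rule 3 of the 10 genes were called lower, Acss2, Acly and Acsl4, and 0 were called higher, where 4.99% of all genes tested were called lower and 3.90% higher. By the adjusted p alone, with no minimum fold change, 8 of 10 were lower and 0 higher, where 15.8% of all genes were lower and 15.7% higher. Those 8 genes also had all knockdown arrays below all control arrays, which held for 27.0% of all genes, and 0 of 10 had them above all controls, which held for 27.7%. The median change of the 10 genes was -0.39 on the log2 scale, and that of all genes 0.0054. Acacb and Acsl3 did not pass. The count lower at the adjusted p was 5 without knockdown replicate 3, 4 with the replicate number as a block and 2 with the row of the slide as a block. The count called lower was 8 with no minimum fold change, 0 with a fold change above 2 and 1 after normexp background correction with quantile normalization.

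**Figure D2:**
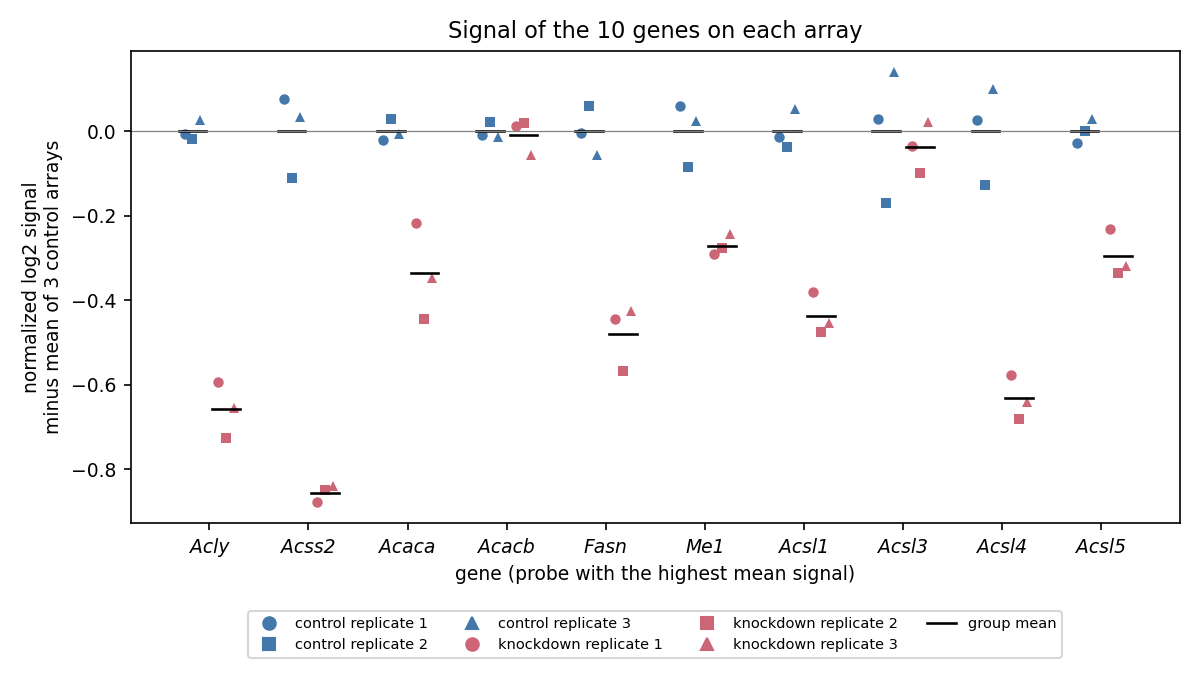
Normalized log2 signal of each gene on each of the 6 arrays, minus the mean of its 3 control arrays; symbols mark the replicate, colours the group and bars the group mean. All knockdown arrays lie below all control arrays for 8 genes, furthest for Acss2 at a change of -0.86, while the groups overlap for Acacb and Acsl3.

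Both cytosolic sources of acetyl-CoA were down-regulated. Acss2, the acetate-activating synthetase, had the largest change of the 10 genes and was 1.81-fold lower. Its normalized signal (probe A_55_P1988789) was 1.82, 1.64 and 1.78 on control arrays 1 to 3 and 0.87, 0.90 and 0.91 on knockdown arrays 1 to 3. The groups stood 0.73 apart at their nearest arrays, while the SD over 3 arrays was 0.098 among controls and 0.019 among knockdown arrays. This fall of 0.86 on the log2 scale had an SE of 0.063 (limma adjusted p = 0.00132). The second Acss2 probe, matched to the same accession, changed by -0.52 (SE 0.056, limma adjusted p = 0.00382), which is under the fold limit. Acss2 was called in all 19 alternative settings that kept the 1.5-fold limit, with changes from -0.97 to -0.69. It was not called with a fold change above 2.

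Acly, ATP citrate lyase, was 1.58-fold lower. Its signal (probe A_55_P2025954) was 6.87, 6.85 and 6.90 on the control arrays and 6.28, 6.15 and 6.22 on the knockdown arrays. The groups did not overlap, and the SD over 3 arrays was 0.023 among controls and 0.067 among knockdown arrays. Acly thus changed by -0.66 (SE 0.051, limma adjusted p = 0.00153). The second Acly probe, matched to another RefSeq transcript of the gene, changed by -0.51 (SE 0.066, limma adjusted p = 0.00627). Averaged over both probes the change was -0.58, just under the fold limit of 0.585, and the call was lost there and after normexp with quantile normalization, also at -0.58.

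Of the carboxylases, Acaca passed the adjusted p and Acacb did not. Acaca, which supplies malonyl-CoA for synthesis in the cytosol, had signal of 4.04, 4.09 and 4.05 in control and 3.84, 3.62 and 3.71 in knockdown (probe A_55_P2019058). Acaca changed by -0.34 (SE 0.069, limma adjusted p = 0.0252), a fall of 20.8% that was under the fold limit. The knockdown arrays lay below the controls, and their SD of 0.11 over 3 arrays was wider than the 0.025 of the controls. The remaining Acaca probes were dim, between 98.2 and 194 intensity units, and changed by -0.46 (limma adjusted p = 0.0522) and -0.048 (limma adjusted p = 0.835). The Acaca adjusted p rose above 0.05 without control replicate 1, 2 or 3 (0.0747, 0.0844 and 0.0686), without knockdown replicate 2 or 3 (0.0593 and 0.0834), and with the replicate number (0.0844) or the slide row (0.155) as a block. Its range over the 19 alternatives was 0.000874 to 0.155.

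Acacb, the mitochondrial carboxylase whose malonyl-CoA restrains fatty acid import into mitochondria, had signal of -0.39, -0.36 and -0.40 in control and -0.37, -0.36 and -0.44 in knockdown (probe A_55_P2019054). The groups overlapped, and the difference was -0.0090 with a 95% interval from -0.12 to 0.10 and a limma adjusted p of 0.906. At this probe the interval leaves out a change of 1.5-fold in either direction. The other Acacb probe, at 46.5 to 68.0 intensity units, differed by 0.33 with an interval from 0.055 to 0.60 and a limma adjusted p of 0.0906. Its knockdown arrays all lay above the controls, but neither Acacb probe passed the test.

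Fasn, the synthase that makes palmitate, is covered by a single probe (A_52_P100252). Its signal was 1.90, 1.96 and 1.84 on control arrays and 1.46, 1.33 and 1.48 on knockdown arrays. The nearest arrays of the groups were 0.37 apart, and the SD within groups was 0.059 (n = 3) and 0.078 (n = 3). Fasn changed by -0.48 (SE 0.062, limma adjusted p = 0.00614), a fall of 28.2% that stayed under the fold limit. It passed that limit, at -0.60, when arrays were scaled on their median, a scaling that moved the median of all genes to -0.11. That scaling shifts every gene by the same amount.

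Me1, which makes cytosolic NADPH from malate, had probes matched to a single accession. The brightest (A_55_P2009952) was 4.18, 4.04 and 4.15 in control and 3.83, 3.85 and 3.88 in knockdown, a change of -0.27 (SE 0.054, limma adjusted p = 0.0232). The remaining Me1 probes changed by -0.28 (limma adjusted p = 0.0215) and -0.14 (limma adjusted p = 0.0791). At each of the 3 probes the knockdown arrays lay below the controls, by 9.37% to 17.8%. When single arrays were left out, the adjusted p at the brightest probe stayed below 0.05 only without control replicate 2 (limma adjusted p = 0.0300). It was 0.0676 to 0.0762 without control replicate 1 or 3 or any of the knockdown replicates. Over the 19 alternatives it ranged from 0.000782 to 0.133.

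Among the 4 long-chain acyl-CoA synthetases of the group, Acsl4 was called lower, Acsl1 and Acsl5 passed the adjusted p alone, and Acsl3 did not pass. Acsl6, a further Acsl gene outside the group, differed by 0.16 (SE 0.052, limma adjusted p = 0.0811) and did not pass either. Acsl4, which prefers arachidonic acid, was 1.55-fold lower, with signal of 3.63, 3.47 and 3.70 in control and 3.02, 2.92 and 2.96 in knockdown (probe A_55_P1983177). Acsl4 changed by -0.63 (SE 0.074, limma adjusted p = 0.00467). The groups were 0.45 apart at their nearest arrays. The change lay close to the fold limit, and leaving out control replicate 3 took it below, at -0.58, as did 3 other alternatives, at -0.58 to -0.57 (slide row, normexp with quantile normalization, scaling on probes above background).

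Acsl3, a synthetase of the endoplasmic reticulum and lipid droplets, had signal of 0.53, 0.33 and 0.64 in control and 0.47, 0.40 and 0.52 in knockdown (probe A_55_P2165324). The knockdown values fell inside the range of the controls, whose SD was 0.16 (n = 3). The difference was -0.038 with a 95% interval from -0.27 to 0.20 and a limma adjusted p of 0.806. Like Fasn, Acsl4 and Acsl5, Acsl3 is read from a single probe.

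Acsl1, a synthetase abundant in fat, liver and heart, had signal of 3.61, 3.58 and 3.67 in control and 3.24, 3.14 and 3.17 in knockdown (probe A_51_P496432). Its change was -0.44 (SE 0.050, limma adjusted p = 0.00440), a fall of 26.1%. The other Acsl1 probe, matched to the same accession, had overlapping groups and differed by -0.11 (SE 0.068, limma adjusted p = 0.305), so the size of the Acsl1 change depends on the probe. Acsl5, known from mitochondria and the intestine, was 3.18, 3.21 and 3.24 in control and 2.98, 2.88 and 2.89 in knockdown (probe A_52_P593037), a change of -0.30 (SE 0.049, limma adjusted p = 0.0127). Its adjusted p rose to 0.0502 without control replicate 2, to 0.0547 without knockdown replicate 3, to 0.0651 with the replicate number as a block and to 0.106 with the slide row as a block.

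**Figure D3:**
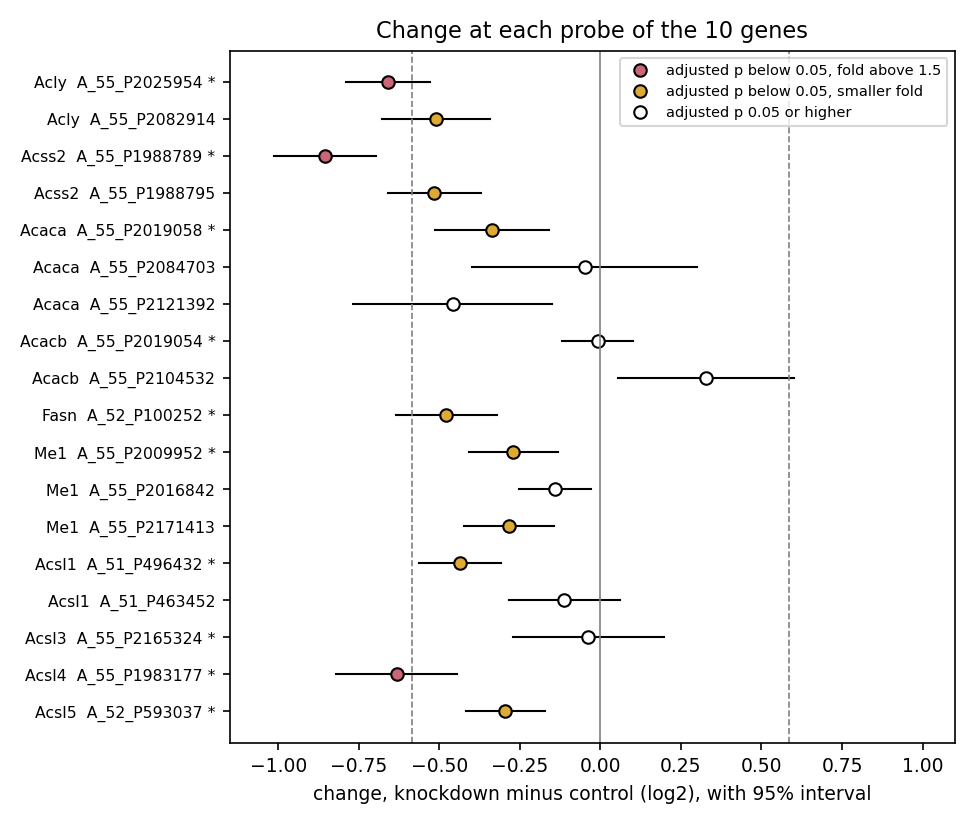
Change at each of the 18 probes of the 10 genes, knockdown minus control on the log2 scale, with its 95% interval from the limma fit; an asterisk marks the probe a gene was read from and dashed lines mark the fold limit of 0.585. Of 18 probes, 17 lie below 0 and 11 of them pass the adjusted p, 3 with the fold limit, while the dim Acacb probe lies at 0.33.

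Per probe, 11 of 18 were lower at the adjusted p, against 11.4% of all tested probes, and 3 of 18 were called lower, against 3.82%. At 13 of 18 the knockdown arrays lay below all controls, against 21.7% of all probes. Of the 6 genes with several probes, Acly, Acss2 and Me1 had every probe below the controls without overlap. Acaca and Acsl1 each had a probe with overlapping groups.

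Whether genes of like function changed by different amounts was tested on the difference of their signals within each array, for 7 pairs. The largest difference was between Acsl3 and Acsl4, whose changes stood 0.59 apart (SE 0.042), equal to 1.51-fold. Acsl1 fell further than Acsl3 by 0.40 (SE 0.077), and Acaca changed by 0.33 (SE 0.070) more than Acacb. Acss2 and Acly differed by 0.20 (SE 0.069), Fasn and Me1 by 0.21 (SE 0.084), Acaca and Fasn by 0.14 (SE 0.050), and Acsl1 and Acsl5 by 0.14 (SE 0.019). For each of the 7 pairs the within-array differences of the groups did not overlap, and the two-sided exact permutation p was 0.1, and stayed 0.1 when adjusted over the pairs by the Benjamini-Hochberg method. A design of 3 against 3 arrays cannot give a smaller p. The difference between Acsl1 and Acsl5 turned to 0.021 in the opposite direction when probes of a gene were averaged, where that between Acly and Acss2 was 0.10 (exact permutation p = 0.3). The difference between Fasn and Me1 was 0.14 without control replicate 2 (exact permutation p = 0.2). Only Acsl3 and Acsl4, Acsl1 and Acsl3, and Acaca and Acacb kept an exact p of 0.1 in all 13 alternatives run for the pairs. Of these, median scaling, scaling on probes above background and the series matrix could not change the outcome. A shift of a whole array cancels in a difference within that array.

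The arrays sat on 1 slide, with the controls and knockdown array 1 in the first row and the remaining knockdown arrays in the second. Within the first row, knockdown array 1 differed from the mean of the 3 controls by -0.88 for Acss2, -0.59 for Acly, -0.58 for Acsl4, -0.44 for Fasn and -0.38 for Acsl1. Acaca, Me1 and Acsl5 differed there by -0.22, -0.29 and -0.23, Acacb by 0.011 and Acsl3 by -0.036. With the row as a block, the comparison rests on that 1 knockdown array, which is assumed to vary like the others. In that fit Acss2 (limma adjusted p = 0.0234, range over its alternatives 1.74e-06 to 0.0249) and Acly (0.0240, range 1.62e-06 to 0.0251) were called. Acsl4 was not (limma adjusted p = 0.0574, range 2.27e-05 to 0.0574), and 2 of 10 genes passed the adjusted p.

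The genes whose signal over the 6 arrays was most like that of Fasn were Grk6, Impdh1, Magel2, Copz1 and Gsn, with Pearson correlations of 0.997 or above among 13968 genes above background on all arrays. They are given as a description over 6 arrays, and 2656 of these genes correlated with Fasn above 0.9. Group means were not removed, so a gene that was lower in knockdown correlates with Fasn through that change. The values therefore do not show a likeness beyond the group difference. Among the 10 genes, Acly followed Fasn most closely at 0.979, then Acaca at 0.962, Acsl5 at 0.959, Acsl1 at 0.957, Acss2 at 0.950 and Acsl4 at 0.932. Me1 stood at 0.898, and Acsl3 and Acacb at 0.12 and 0.11.

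Genes around the pathway were taken from 7 lists of 81 genes, of which 70 were tested. Of these 8 were called lower and 1 higher, with 23 lower and 4 higher at the adjusted p alone and a median change of -0.099. Over all genes 4.99% were called lower and 3.90% higher, with 15.8% and 15.7% at the adjusted p, and these shares are the background for the count of each list that follows. The acetyl-CoA and citrate list had 2 of 7 tested genes called lower, 5 at the adjusted p, and a median of -0.37. The called genes were Acat2 at -1.60 (SE 0.071, limma adjusted p = 0.000443) and Aacs at -0.62 (SE 0.051, limma adjusted p = 0.00175). Acat2 is the cytosolic thiolase that joins acetyl-CoA units toward sterols and Aacs activates acetoacetate, so neither makes acetyl-CoA for Fasn directly. Slc25a1, the carrier that exports citrate to Acly, changed by -0.30 (limma adjusted p = 0.0201). The NADPH list had 2 of 8 called lower, Mthfd1 of folate metabolism at -0.67 (SE 0.051, limma adjusted p = 0.00149) and mitochondrial Idh2 at -0.60 (SE 0.051, limma adjusted p = 0.00189), with 5 lower at the adjusted p and a median of -0.36. Of the pentose phosphate enzymes, Pgls changed by -0.28 (limma adjusted p = 0.0192), while G6pdx and Pgd differed by 0.038 and -0.058 (limma adjusted p = 0.650 and 0.583).

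Regulators of the carboxylase and synthase had 0 of 11 called, with 3 lower at the adjusted p and a median of -0.072. The mitochondrial fatty acid synthesis list, a separate route that feeds lipoic acid, had 0 of 7 called, 1 lower at the adjusted p and a median of -0.095. Acyl-CoA binding and hydrolysis had 2 of 14 called lower, the thioesterase Acot11 at -0.69 (SE 0.087, limma adjusted p = 0.00582) and peroxisomal Acbd5 at -0.61 (SE 0.065, limma adjusted p = 0.00360). In that list 4 were lower and 1 higher at the adjusted p, and the median was -0.12. The other acyl-CoA synthetases, outside the 10 genes, had a median of 0.16 over 11 genes, with 0 lower and 3 higher at the adjusted p. Of these Acsbg1, a synthetase of neural and steroid-forming tissue, was called higher at 1.20 (SE 0.21, limma adjusted p = 0.0146), from -5.38 in control to -4.19 in knockdown. The count of genes of all 7 lists called higher was 0 without control replicate 2 or knockdown replicate 1, 2 without control replicate 3 and 3 without knockdown replicate 2. Acsbg1 was therefore not called without control replicate 2 or knockdown replicate 1. Nor was Acsbg1 called with normexp under either normalization, where the count was also 0. Among factors that control lipogenesis 2 of 12 were called lower, Scap, the escort of SREBP, at -0.80 (SE 0.045, limma adjusted p = 0.000705) and Srebf1 at -0.67 (SE 0.058, limma adjusted p = 0.00192). 5 of 12 were lower at the adjusted p, and the median was -0.14.

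**Figure D4:**
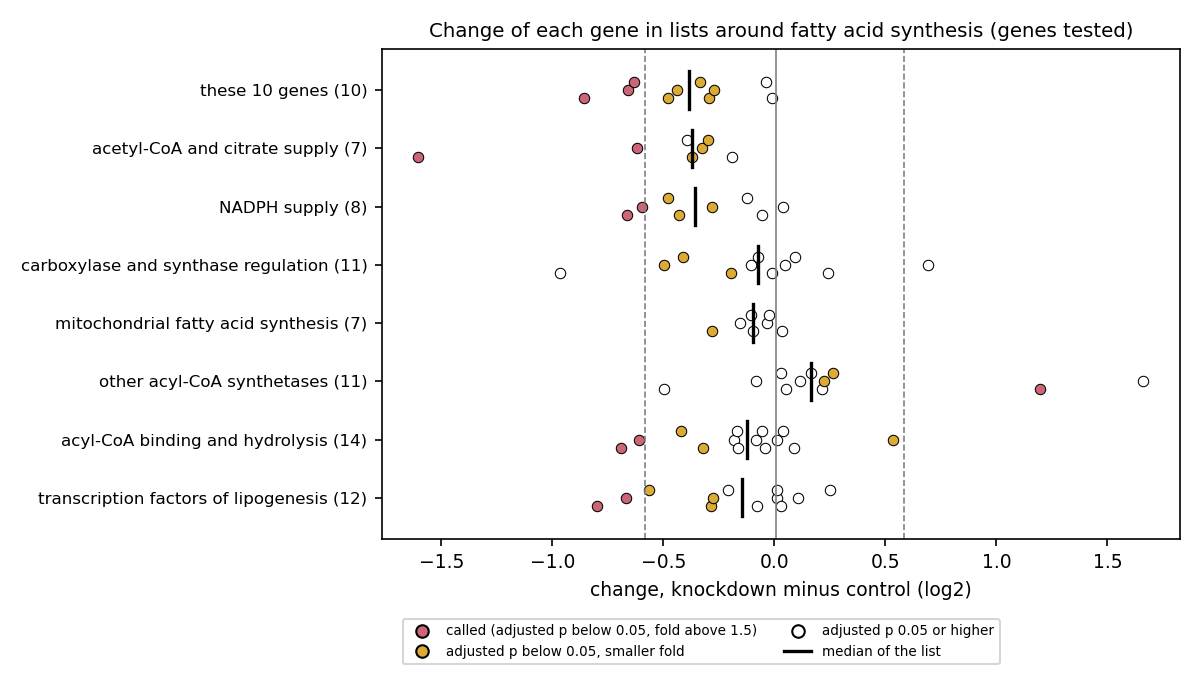
Change of each tested gene in the 10-gene group and in the 7 surrounding lists, knockdown minus control on the log2 scale, with a black bar at the median of the list, dashed lines at the fold limit and a grey line at the median of all genes. The medians of the 10 genes (-0.39), of acetyl-CoA and citrate supply (-0.37) and of NADPH supply (-0.36) lie lowest, and that of the other acyl-CoA synthetases (0.16) lies highest.

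Of the enzymes that desaturate or lengthen the fatty acids made by Fasn, only Scd1 and Elovl6 were examined. Scd1, the desaturase, went from 2.06 in control to -0.88 in knockdown, a change of -2.94 (SE 0.16, limma adjusted p = 0.000669), while the elongase Elovl6 changed by -0.35 (SE 0.047, limma adjusted p = 0.00701) and was under the fold limit. A test of Scd1 against Fasn was not made.

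**Figure D5:**
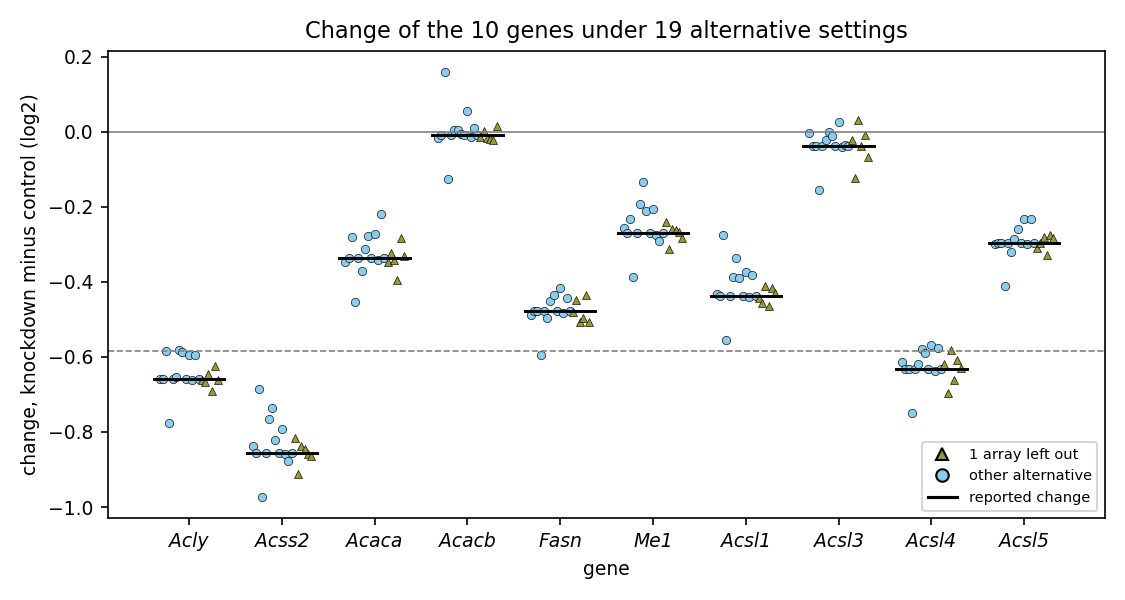
Change of each of the 10 genes under 19 alternative settings, knockdown minus control on the log2 scale; black bars are the reported changes, triangles leave out 1 array, circles are other scalings, corrections, filters, blocks and probe rules, and the dashed line is the fold limit. Acss2 stays beyond the limit throughout, Acly and Acsl4 cross it in some settings, and Acacb and Acsl3 lie on both sides of 0.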

How the data were processed

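Total RNA of transfected neuro2a cells was labelled with Cy3 and hybridized to Agilent mouse arrays. Spots were read by the authors in Agilent's Feature Extraction software (version 10.10.1.1). Each deposited scanner table gives the processed signal, a background-corrected intensity on a linear scale, and flags. The deposited series matrix holds log2 values whose scale and centring are not stated. Over 43557 probes its differences between arrays matched those of the scaling used here within 0.00761, with column medians of -0.0117 to 0.0182, which fits the same scaling followed by centring of each probe.

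Control spots and outlier spots were left out, processed signals were put on the log2 scale and lowered by their array's 75th percentile, and replicate spots were averaged. This gave 55681 probes, 245 of them incomplete. Probes that reached the 20th percentile of their array on all 3 arrays of a group were kept. No probe of the 10 genes was removed. Curated mRNA accessions named 26392 probes, and 25869 of these matched the RefSeq gene table of GRCm38.p6, without versions. The array design was annotated on another build, so no probe position is given. Groups and replicate numbers came from sample titles. The group comparison used lmFit and eBayes of limma 3.58.1 under R 4.3.3 (two-sided, no covariate) and Benjamini-Hochberg adjustment over all 42137 probes. The fit was tested on simulated data. The number of arrays limits precision.

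The genes named are the 10 members with all their probes, Nfya and Nfyc, up to 3 called genes of each list, the 5 genes most like Fasn, and Scd1 and Elovl6. Slc25a1, Pgls, G6pdx, Pgd, Acsl6 and the named cell type markers were added after their values were seen. Members and lists were chosen with earlier results of these data known, and the paper had been read. Alternatives were other scalings (median, probes above background, quantile), normexp with an offset of 50 on median spot and background signal (no mean spot signal was used), the series matrix, filters, thresholds, a variance trend, array weights, blocks, averaging of probes and leaving out each array.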

Additional observations from a re-analysis of the deposited data

How the results depend on the processing

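Acss2 kept its direction and call in all 19 settings that kept the 1.5-fold limit, as did Nfya and Nfyc. The Acly call was lost with averaged probes and with normexp and quantile normalization, at -0.58 in each. The Acsl4 call was lost with the scaling on probes above background (-0.57), with normexp and quantile normalization (-0.58) and with the slide row as a block (-0.58). Its change ranged from -0.70 to -0.58 when 1 array was left out. Fasn was called only under median scaling (-0.60). The count of the 10 genes called lower was 0 with a fold change above 2, 8 without a minimum fold change, 1 with normexp and quantile normalization, and 2 to 3 when 1 array was left out (2 without control replicate 3). By the adjusted p alone it was 8, but 2 with the slide row as a block and 5 to 7 when 1 array was left out, lowest without knockdown replicate 3. None of the 10 genes was called higher in any setting, or higher at an adjusted p below 0.05. The cause of these shifts was not tested.

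Whether the replicate numbers of the titles pair the arrays cannot be told. The authors' scan names number the controls 2, 3 and 4 and the knockdown arrays 1, 2 and 4. Only the arrays titled replicate 3 share a number there, so the replicate block follows the titles alone. All correlations between deviations of control and knockdown arrays were near 0. Arrays with the same title number stood at 0.018, 0.067 and 0.0024. The value for replicate 2 was the highest of all, while control replicate 3 correlated best with knockdown replicate 1, at 0.063. With the replicate block 3 of the 10 genes were called lower, as reported, and 4 passed the adjusted p, where Fasn stood at a limma adjusted p of 0.0505 (range over its alternatives 6.39e-05 to 0.0686).

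Genes of the surrounding lists called lower, 8 as reported, numbered 1 with a fold change above 2, 23 without a minimum, 5 with normexp, 4 with normexp and quantile normalization, 5 with the scaling on probes above background and 6 to 9 when 1 array was left out. Those called higher, 1 as reported, numbered 4 without a minimum, 0 with normexp under either normalization and with the slide row as a block, 2 with the scaling on probes above background and 0 to 3 when 1 array was left out. Over all genes, 824 lower and 644 higher calls became 549 and 288 with normexp and quantile normalization, 382 higher with median scaling, 275 higher with normexp, 2602 and 2598 without a minimum fold change, and 286 and 181 above 2-fold. Lower calls made up 56.1% of all calls, 75.5% under median scaling, 45.1% under the scaling on probes above background and 68.0% under normexp. The slide row was chosen as a block after seeing the data. A block of slide or scan could not be fitted, since all arrays share both. Dim probes of Acaca and Acacb limit what those further readings show. The Acsbg1 call also rests on a dim probe.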
